A study of Mus musculus with 6 samples.

Results

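Collagen genes of the mouse were followed through the development of ovary and testis. A gene was counted as a collagen gene when its platform symbol had the form Col, a number, the letter a and a number, as in Col1a1, and only probe sets with 1 gene symbol were used. This rule found 42 of the 18193 genes measured, through 82 probe sets. They fall into 11 fibrillar collagens, 6 basement membrane collagens and 25 others.

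The study, by its title, looked for genes of chromosome segregation in the first meiotic division. Gonads came from C57BL/6 mice, an inbred laboratory strain, and were dissected at 3 ages. Fetal gonads were taken at 15.5 days postcoitum, neonatal gonads on day 1 after birth and adult gonads at 10 weeks of age. Ovary and testis were each sampled at each age, without any allele or agent named in the labels, and total RNA of each sample was hybridised to 1 Affymetrix array. Each of the 6 groups is therefore a single array of a whole organ, with no replicate. The differences below thus lack a replicate check and carry no p-value, SD or standard error.

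Collagens are secreted or membrane-bound proteins whose chains wind 3 by 3 into a triple helix. Fibrillar collagens pack into the cable-like fibrils of connective tissue, type IV collagens form the sheet of basement membranes, and the others decorate fibrils, build beaded filaments or hexagonal networks, or span cell membranes. In gonads, collagens make up the capsule and the connective tissue between tubules or follicles, and a basement membrane surrounds each testis cord, seminiferous tubule and follicle.

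Several collagen genes lie next to each other in the genome, and the type IV genes lie head to head in pairs. In the order of protein-coding genes of assembly GRCm38.p6, 7 pairs of members were direct neighbours. These were Col9a1 with Col19a1, Col3a1 with Col5a2 and Col4a4 with Col4a3 on chromosome 1, Col4a1 with Col4a2 on chromosome 8, Col6a5 with Col6a4 on chromosome 9, Col6a2 with Col6a1 on chromosome 10, and Col4a6 with Col4a5 on chromosome X.

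The sequence before the transcription start was taken from RefSeq (GRCm38.p6), which gave a promoter window for 33 of the 42 genes. The 5 sequences below are the 160 bases that end just before the start, 5′ to 3′ on the strand of the gene, and are shown because the results turn on these genes. Col1a2 and Col3a1 stand for the fibrillar genes whose calls all involved adult testis. Col4a5 and Col4a6 are the divergent neighbours on the X chromosome whose calls differed in adult testis, and Col20a1 was high only there. Capitals mark matches, on either strand, to TATAAA (the TATA box), CCAAT or GGGCGG (the GC box), which do not overlap in these windows.
Col1a2, chr6:4505458-4505617, plus strand: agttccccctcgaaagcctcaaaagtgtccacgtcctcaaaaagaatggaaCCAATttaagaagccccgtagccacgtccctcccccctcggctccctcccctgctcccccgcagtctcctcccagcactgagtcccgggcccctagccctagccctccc
Col3a1, chr1:45311378-45311537, plus strand: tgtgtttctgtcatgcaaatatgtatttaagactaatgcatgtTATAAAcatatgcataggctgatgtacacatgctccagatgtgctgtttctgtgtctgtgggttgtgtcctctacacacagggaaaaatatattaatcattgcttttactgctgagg
Col4a5, chrX:141475259-141475418, plus strand: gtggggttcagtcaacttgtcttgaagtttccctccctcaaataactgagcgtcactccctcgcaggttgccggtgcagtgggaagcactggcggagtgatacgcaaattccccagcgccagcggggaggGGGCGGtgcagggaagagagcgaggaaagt
Col4a6, chrX:141474077-141474236, minus strand: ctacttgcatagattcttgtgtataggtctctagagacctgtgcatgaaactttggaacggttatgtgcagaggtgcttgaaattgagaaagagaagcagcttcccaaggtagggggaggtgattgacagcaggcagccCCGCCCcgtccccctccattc
Col20a1, chr2:180986375-180986534, plus strand: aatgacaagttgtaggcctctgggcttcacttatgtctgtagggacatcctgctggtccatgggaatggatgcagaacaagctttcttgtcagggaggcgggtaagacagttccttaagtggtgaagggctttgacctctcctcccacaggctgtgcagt

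Col1a2 holds a CCAAT, Col3a1 a TATAAA, and Col4a5 and Col4a6 a GC box each, while the Col20a1 window holds none of these motifs. Over the 250 bases upstream of the start, TATAAA was found on either strand in 13.9% of the 36 collagen windows and in 12.4% of all 32851 windows. CCAAT was found in 36.1% of the collagen windows and in 33.9% of all. GGGCGG was found in 58.3% of the collagen windows and in 32.7% of all. These are matches of letters and not sites of a factor.

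Array signals are on a linear scale and were multiplied by 1 factor per array, between 0.913 and 1.26, so that all arrays had the same trimmed mean. Signals under 75.3, the median of all scaled signals, were raised to it, and a gene at this value is said to be at the floor. A gene was called higher or lower when its signals on 2 arrays differed by a ratio of 4 or more, and a ratio to an array at the floor is a lower bound. The ratios compare arrays for the same probe set and never genes with each other. Sums over marker genes add signals of different probe sets, so the brightest weigh most in them. The 3'/5' signal ratio of the Gapdh control, which grows as RNA degrades, was 3.12 in neonatal ovary, 2.36 in adult testis and between 1.32 and 1.45 on the other arrays. The spiked hybridization controls, added in a fixed amount, had a geometric mean of 441 in adult testis, 592 in neonatal ovary and between 927 and 1152 on the others. The Actb control had its lowest 3'/5' ratio in adult testis, at 1.81, and its highest in fetal ovary, at 3.78, so the controls did not rank the arrays alike. Main results are given with their dependence on the scaling.

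Of the 42 collagen genes, 38 rose above the floor on 1 array or more, and 20 did so on all 6. Of all 18193 genes, 15282 and 9425 did so. The 4 that were at the floor on every array were Col6a5, Col10a1 (the type X collagen of cartilage that turns to bone), Col11a2 and Col24a1, so nothing can be said of their changes. The number above the floor per array ranged from 29 in adult testis to 34 in neonatal testis. Of the 38 genes, 14 had their highest signal in neonatal ovary, 6 each in fetal ovary, fetal testis and neonatal testis, 5 in adult testis and 1 in adult ovary, and 26 had their lowest signal in adult testis, genes at the floor there included. The same counts were not made over all genes, so they have no share to stand beside. For all genes above the floor on both arrays, the median log2 ratio of adult to neonatal testis was -0.50. The counts also depend on the scaling. Neonatal ovary, the array with the largest scale factor, was the highest for 6 genes on signals as deposited and for 20 after scaling to the hybridization controls, and 19 genes had the same highest array under all 5 scalings. In the 7 comparisons of age and organ 27 genes were called at least once, 11 were above the floor but never called, and the remaining 4 were those at the floor on every array. How many of all genes were called at least once was not counted.

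**Figure D1:**
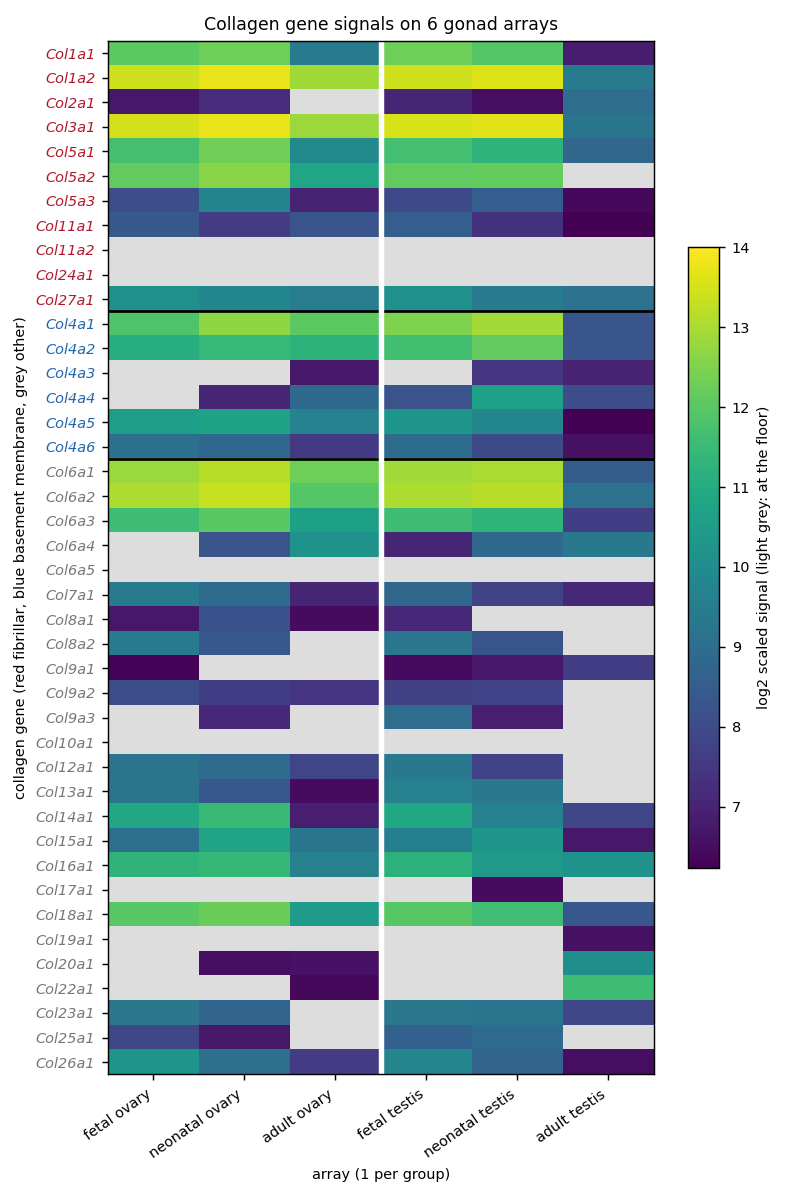
Log2 of the scaled signal of each collagen gene (rows, grouped by class) on the 6 arrays (columns, 1 array per group), with values at the floor in light grey. In the column of adult testis most fibrillar, type IV and type VI genes are darker, that is lower, than on the other arrays, while Col2a1, Col20a1 and Col22a1 are brightest there.

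The fetal ovary and the fetal testis had similar collagen signals. None of the 42 genes was called higher in fetal ovary and 1 was called lower, against 0.192% and 0.44% of all genes. The sign of these small ratios turned under another scaling for 12 genes. The median log2 ratio of ovary to testis was -0.01 for fibrillar, -0.28 for basement membrane and 0.00 for other collagens, against 0.00 for all genes. Of the 33 collagen genes above the floor in at least 1 of these arrays, 31 differed by less than 2-fold. So did 12058 of the 12595 genes above the floor among all genes. For scale, probe sets of the same gene gave a robust SD of 0.16 for a log2 ratio of these arrays, a technical spread that leaves out animals and hybridizations.

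The gene called was Col9a3, a chain of the fibril-associated type IX collagen known from cartilage. Its signal was 518 in fetal testis, 139 in neonatal ovary and 119 in neonatal testis, and it was at the floor in fetal ovary, adult ovary and adult testis. Fetal testis thus stood alone, at least 6.88-fold above fetal ovary and 4.36-fold above neonatal testis. A second probe set gave 438 in fetal testis and 137 in neonatal testis and lay at the floor elsewhere, and the last was at the floor on all arrays. The 4.36-fold difference lay near the limit and was not called after quantile normalization or scaling to the same median, whereas fetal testis against fetal ovary was called under all 5 scalings tried.

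The other chains of type IX collagen did not share this pattern. Col9a1 had signals of 78.9 in fetal ovary, 88.8 in fetal testis, 110 in neonatal testis and 200 in adult testis and lay at the floor in neonatal and adult ovary. Col9a2 gave 274, 205 and 173 in fetal, neonatal and adult ovary and 208 and 223 in fetal and neonatal testis, and lay at the floor in the adult testis. Neither was called in any comparison. Sox9, which drives Sertoli cell and cartilage development alike, had a signal of 135 in fetal testis and was at the floor in fetal ovary. In the neonatal organs Sox9 was called lower in ovary than in testis, whereas Col9a3 was not called. The part of any cell type in the Col9a3 signal was not tested.

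At birth the organs differed more, though still in few genes. Relative to neonatal testis, no collagen gene was called higher in neonatal ovary and 2 were called lower, against 1.4% and 0.962% of all genes. Each of the 9 fibrillar genes above the floor had the higher signal in ovary, with a median log2 ratio of 0.31 over the class, and the basement membrane collagens had a median of -0.48 and the others of 0.12. The fibrillar median lay between 0.09 and 0.92 under the other scalings, so its size rests on the scaling, and the sign of Col1a2, Col3a1 and Col11a1 turned under at least 1 of them. Probe sets of a gene gave a robust SD of 0.28 for a log2 ratio here. All 6 duct and mesonephros epithelium markers were called higher in neonatal ovary, with a median log2 ratio of 2.95, while none of the 8 stromal markers was called. Their part in the collagen ratios was not tested.

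The genes called lower in neonatal ovary were Col4a4 and Col25a1. Col25a1 encodes a transmembrane collagen known from neurons and the innervation of muscle. Its signal was 236 in fetal ovary, 107 in neonatal ovary, 400 in fetal testis and 497 in neonatal testis, and it was at the floor in adult ovary and adult testis. The ratio of neonatal testis to neonatal ovary was 4.63. After scaling to the hybridization controls its log2 ratio of ovary to testis was -1.61, and the call was lost. The gene has a second probe set that was above the floor only in adult testis, at 82.3.

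Type IV collagen of basement membranes is built from 3 sets of chains. Col4a1 with Col4a2 make the form found in nearly all basement membranes, and Col4a3, Col4a4 and Col4a5 make the form of the kidney glomerulus and of some other epithelia, with Col4a6 joining Col4a5 in another form. On these arrays the log2 changes of Col4a1 and Col4a2 stayed close, while the other neighbouring pairs separated in some comparisons. On the probe sets used, Col4a3 and Col4a4 differed by up to 2.43 (neonatal ovary against neonatal testis). Col4a5 and Col4a6 differed by up to 2.46 (adult ovary against adult testis).

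Col4a1 gave 3702, 6549 and 4241 in fetal, neonatal and adult ovary and 5804, 7792 and 313 in fetal, neonatal and adult testis. Col4a2 gave 2155, 2780 and 2427 in the 3 ovaries and 3187, 4530 and 313 in the 3 testes. Both were lowest in adult testis. Both were highest in neonatal testis, which held under all 5 scalings for Col4a2 and not for Col4a1. Their log2 changes differed by at most 0.80 in all 7 comparisons. Between neonatal and adult testis Col4a1 fell 24.9-fold and Col4a2 fell 14.5-fold.

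Col4a4 behaved differently from them. It was at the floor in fetal ovary, at 132 and 470 in neonatal and adult ovary and at 299, 1648 and 266 in the 3 testes by age. Neonatal testis was the high array, 12.5-fold above neonatal ovary, 5.50-fold above fetal testis and 6.19-fold above adult testis. The first 2 of these were called under all 5 scalings. A second probe set gave 129, 926 and 170 in fetal, neonatal and adult testis and 312 in adult ovary, and the last was above the floor only in neonatal testis, at 114. The 3 probe sets therefore put the highest signal on the same array but differed in the size of the change.

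Col4a3, the head-to-head neighbour of Col4a4, was dim. It was at the floor in fetal and neonatal ovary and in fetal testis and had signals of 106 in adult ovary, 174 in neonatal testis and 129 in adult testis. Neonatal testis was again the highest array, though not under every scaling, and no comparison of Col4a3 reached the ratio of 4.

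Col4a5 and Col4a6 were highest before or at birth. Col4a5 gave 1520, 1724 and 818 in fetal, neonatal and adult ovary and 1266, 904 and 76.0 in fetal, neonatal and adult testis. Col4a6 gave 540, 467 and 188 in the 3 ovaries and 507, 266 and 95.7 in the 3 testes. Both had their lowest signal in adult testis, where Col4a5 was 11.9-fold lower than in neonatal testis and Col4a6 was not called. Their log2 changes from neonatal to adult testis differed by 2.10. A second, dimmer probe set of Col4a5 was at 368 in neonatal and 108 in adult testis, a log2 change of -1.77 beside -1.47 for Col4a6, so the separation rests on the brighter probe set of Col4a5, which was next to the floor in adult testis.

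**Figure D2:**
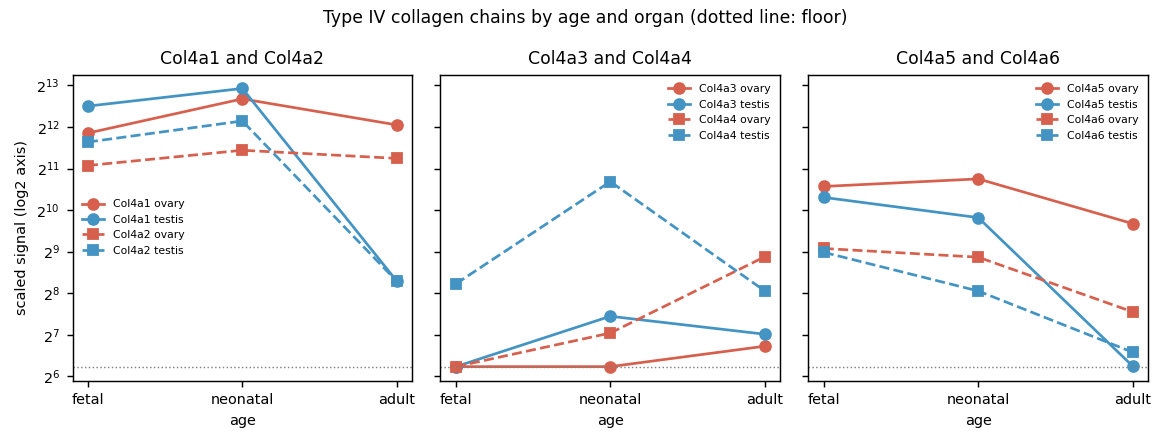
Scaled signal (log axis) of the 6 type IV collagen genes, drawn as 3 neighbouring pairs, at the 3 ages in ovary and testis, with 1 array per point. The floor is a dotted line, and dashed lines join the points of the second gene of each pair. Col4a4 peaks in neonatal testis at 1648, and Col4a1 and Col4a2 are both at 313 in adult testis.

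Among the genes that build basement membranes together with type IV collagen, Lamc3, a laminin chain, showed the same high array as Col4a4. Lamc3 was at the floor in neonatal ovary and at 145, 685 and 135 in the 3 testes by age, so that neonatal testis was 4.73-fold above fetal testis and at least 9.09-fold above neonatal ovary. It was the only gene among the 14 measured partner genes called in either comparison. Of all genes 0.357% were called higher in neonatal than in fetal testis and 0.962% lower in neonatal ovary than in neonatal testis. The summed signal of 6 Sertoli cell markers was 8203, 16802 and 6812 in fetal, neonatal and adult testis, against 604 in neonatal ovary. None of the 6 was called in neonatal against fetal testis. In adult against neonatal testis 3 were called lower, against 10.3% of all genes. Sums of 6 granulosa cell markers (4180, 9676 and 5943) and 6 smooth muscle and peritubular myoid markers (9273, 12235 and 6102) also peaked in neonatal testis among the testes. These sums are given under the main scaling only. The part of any cell type in the signals of Col4a4, Col4a3 and Lamc3 was not tested. In RNA of a whole organ, fewer cells of a type and less RNA per cell cannot be told apart.

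From fetal to neonatal life, few collagen genes changed in either organ. In testis 1 gene was called higher at birth (Col4a4) and 1 lower (Col9a3), against 0.357% and 0.44% of all genes. Medians of the log2 ratio were 0.00 for fibrillar, 0.47 for basement membrane and 0.00 for other collagens. In ovary 1 gene was called higher at birth and none lower, against 0.759% and 0.231% of all genes, with medians of 0.23, 0.27 and 0.00. Over all 42 genes the sign of the ratio in the ovary comparison turned under another scaling for 15, so small differences there have no settled direction.

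The gene called higher in neonatal than in fetal ovary was Col6a4, a chain of the beaded-filament type VI collagens. It was at the floor in fetal ovary, at 309 and 1184 in neonatal and adult ovary and at 133, 478 and 661 in the 3 testes by age. The neonatal ovary was at least 4.11-fold above the fetal ovary, close to the limit, and the call was lost under 2 of the other scalings. Col6a4 was the collagen gene whose highest signal lay in adult ovary, though not after scaling to the hybridization controls, and its signal was higher at each later age in both organs. Col6a1, Col6a2 and Col6a3 had their lowest signal in adult testis.

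Of the 7 comparisons, adult against neonatal testis held the most collagen calls. Of the 42 genes 19 (45.2%) were called lower in adult testis and 3 (7.14%) higher, against 10.3% and 10.7% of all genes. By class, 6 of 11 fibrillar, 4 of 6 basement membrane and 9 of 25 other collagens were lower. The median log2 ratio was -2.17 for fibrillar, -3.10 for basement membrane and -1.33 for other collagens, against 0.00 for all genes. Probe sets of a gene gave a robust SD of 0.56 here.

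The main fibrillar collagens of connective tissue were among those that fell. Col1a1 and Col1a2, the chains of type I collagen, had their lowest signals in adult testis. Col1a1 was at 4214, 4948 and 675 in fetal, neonatal and adult ovary and at 4952, 3988 and 113 in fetal, neonatal and adult testis. Col1a2 was at 10780, 13612 and 7614 in the ovaries and at 11154, 12252 and 671 in the testes. From neonatal to adult testis Col1a1 fell 35.2-fold and Col1a2 fell 18.3-fold.

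Col3a1, the chain of type III collagen found with type I in soft tissues, was at 11700, 13728 and 7326 in the ovaries and at 11761, 12772 and 605 in the testes. It fell 21.1-fold from neonatal to adult testis. Of the other arrays adult ovary was the lowest.

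Type V collagen, which starts type I fibrils and limits their width, was also low. Col5a1 was at 3332, 5052 and 964 in the ovaries and at 3288, 2483 and 448 in the testes. Col5a2 was at 4506, 6270 and 1830 in the ovaries and at 4532 and 4596 in fetal and neonatal testis, and it fell to the floor in adult testis. Col5a3 was at 274, 857 and 126 in the ovaries and at 248, 378 and 83.7 in the testes. In the testis Col5a1 fell 5.55-fold and Col5a3 fell 4.52-fold after birth, while Col5a2 fell at least 61.0-fold. The log2 changes of Col5a1 and Col5a2 thus differed by at least 3.46 on these probe sets. Another probe set of Col5a1 changed by -3.86, and the second of Col5a2, also at the floor in adult testis, by -5.13 as a bound.

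Type VI collagen, whose 3 main chains assemble in equal parts into beaded filaments around cells, had all 3 genes low in adult testis. Col6a1 was at 7281, 9231 and 5010 in fetal, neonatal and adult ovary and at 7823, 8277 and 365 in fetal, neonatal and adult testis. Col6a2 was at 8537, 10125 and 3983 in the ovaries and at 8498, 9416 and 570 in the testes. Col6a3 was at 3073, 4149 and 1603 in the ovaries and at 3096, 2542 and 204 in the testes. They fell 22.7-fold, 16.5-fold and 12.5-fold in adult against neonatal testis. In each of the 7 comparisons their log2 changes lay within 0.97 of each other.

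The multiplexins Col15a1 and Col18a1 connect basement membranes to the tissue below, and Col18a1 is the source of endostatin. Col15a1 was at 539, 1745 and 614 in the ovaries and at 769, 1278 and 106 in the testes. Col18a1 was at 4148, 4886 and 1433 in the ovaries and at 4058, 3131 and 323 in the testes. From neonatal to adult testis they fell 12.1-fold and 9.70-fold. Both had their lowest signal in adult testis. Col15a1 was highest in neonatal ovary under all 5 scalings, whereas the highest array of Col18a1 changed with the scaling.

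Of the transmembrane collagens, Col13a1, Col23a1 and Col25a1 had lower signals in each adult organ than at either younger age of that organ. Col13a1, a collagen of cell adhesion sites, was at 597, 325 and 87.3 in the ovaries and at 793 and 646 in fetal and neonatal testis. It fell to the floor in adult testis, a ratio of at least 8.59 to neonatal testis. Col25a1 was at least 6.60-fold lower in adult than in neonatal testis. Col23a1 was at 636 and 427 in fetal and neonatal ovary and at 643, 596 and 237 in fetal, neonatal and adult testis, and it was at the floor in adult ovary. Col17a1, the hemidesmosome collagen of skin, was above the floor only in neonatal testis, at 87.4.

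Among the remaining genes, Col26a1, a collagen known from developing testis and ovary, was at 1233, 544 and 198 in the ovaries and at 868, 432 and 92.6 in the testes, and it fell 4.67-fold from neonatal to adult testis. Col8a2, a chain of the network collagen of the cornea and of vessels, was at 707 and 333 in fetal and neonatal ovary and at 627 and 305 in fetal and neonatal testis. It was at the floor in both adult organs, at least 4.06-fold below neonatal testis. Its partner Col8a1 was at 105, 291 and 87.7 in the ovaries and at 141 in fetal testis, was at the floor in neonatal and adult testis, and was never called.

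The size of the fall depended on the scaling, and adult testis had the dimmest hybridization controls. Under all 5 scalings 12 genes were called lower in adult than in neonatal testis, namely Col1a1, Col1a2, Col3a1, Col4a1, Col4a2, Col4a5, Col5a2, Col6a1, Col6a2, Col6a3, Col13a1 and Col15a1. Scaling to the hybridization controls raised the median log2 ratio of all genes above the floor on both arrays from -0.50 to 0.79. With it 28.6% of the collagen genes and 2.22% of all genes were called lower, and 9.52% and 22.3% were called higher.

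Markers of stromal and endothelial cells, which make much of the collagen of connective tissue and vessels, were low on the same array. The summed signal of 8 stromal fibroblast markers was 971 in adult testis and between 10257 and 23918 on the other 5 arrays, with Pdgfrb, Thy1, Nr2f2 and Mfap4 at the floor in adult testis. The sum of 6 endothelial markers was 544 in adult testis and between 2381 and 3815 elsewhere, with 4 of 6 at the floor. The sum of 6 smooth muscle and peritubular myoid markers was 6102 in adult testis, 12235 in neonatal testis and 4299 in fetal ovary, the lowest of the arrays. From neonatal to adult testis 4 of these 6 (Acta2, Myh11, Tagln and Des) were called lower and Actg2 higher, with a median log2 ratio of -2.19. Of all genes 10.3% were called lower and 10.7% higher. All 6 spermatid markers were at the floor on 5 arrays and summed to 54982 in adult testis. Their part in the collagen changes was not tested.

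**Figure D3:**
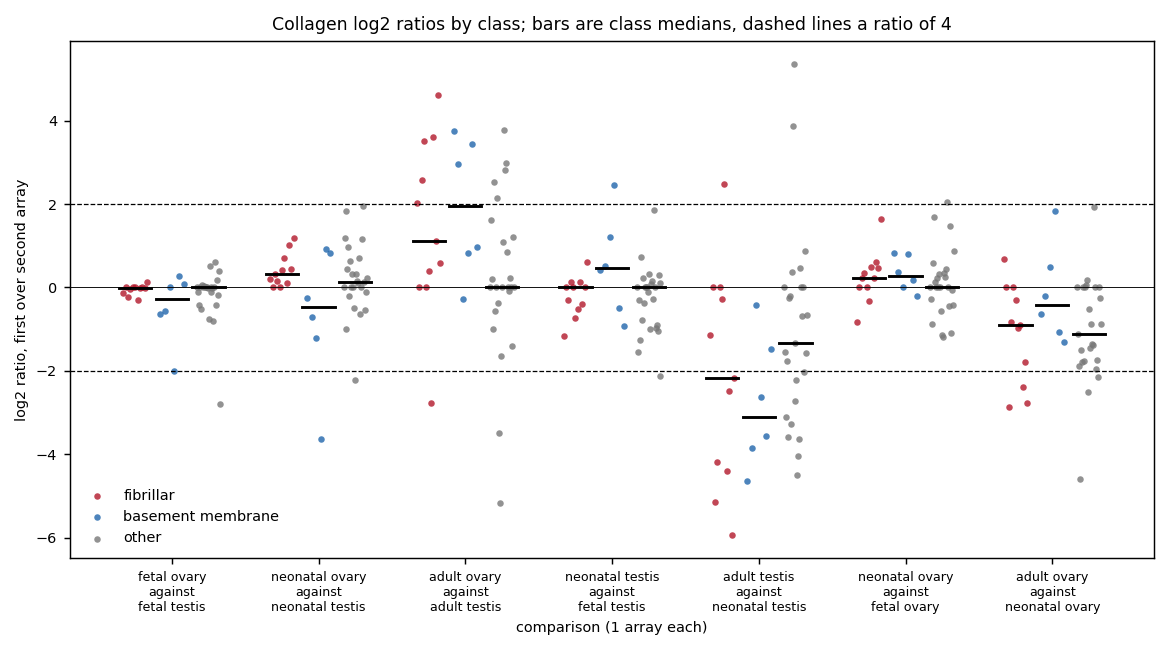
Log2 ratio of every collagen gene in each of the 7 comparisons, by class, with dashed lines at the limits of -2 and 2 and a short bar at the class median. In adult against neonatal testis most fibrillar and basement membrane genes lie below 0, with medians of -2.17 and -3.10, whereas the fetal comparison lies close to 0.

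The 3 genes called higher in adult than in neonatal testis were Col22a1, Col20a1 and Col2a1. Col22a1, a fibril-associated collagen known from muscle-tendon junctions, was at the floor on 4 arrays and had signals of 84.8 in adult ovary and 3071 in adult testis. Adult testis was at least 40.8-fold above neonatal testis. This rests on 1 of its 3 probe sets. The others were above the floor in fetal testis, at 224 and 203, and at or next to the floor on every other array, adult testis included. The position of this probe set in the gene was not checked here, so whether its signal belongs to Col22a1 is uncertain.

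Col20a1, a related fibril-associated collagen, was at 94.6 in neonatal ovary, 98.3 in adult ovary and 1106 in adult testis, and at the floor in fetal ovary and in fetal and neonatal testis. Adult testis was at least 14.7-fold above neonatal testis. Here 2 other probe sets gave 469 and 1063 in adult testis and at most 110 elsewhere, and the last was at the floor on all arrays. The signal in adult testis was thus seen by 3 of 4 probe sets.

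Col2a1, the fibrillar collagen of cartilage, was at 106 and 149 in fetal and neonatal ovary, at the floor in adult ovary, and at 131, 91.8 and 514 in fetal, neonatal and adult testis. Adult testis was 5.60-fold above neonatal testis. Col9a1, which is bound to type II fibrils in cartilage, had its highest signal on the same array, and its second probe set was at 247 in adult testis and at most 92.5 elsewhere, but it did not reach the ratio of 4. Col19a1, its neighbour on chromosome 1, was above the floor only in adult testis, at 96.7. Calls for Col2a1, Col20a1 and Col22a1 held under all 5 scalings.

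Cartilage markers gave a mixed picture beside these genes. Their sum was 2929 in adult testis, of which Comp, a cartilage matrix protein also made in other tissues, had 2490. The sum was higher in adult ovary, at 5250, where Col2a1 was at the floor. Cnmd, the cartilage protein chondromodulin, had 4425 of it, against the floor in adult testis. Acan, the main proteoglycan of cartilage, was at 96.8 in adult testis and at most 146 on any array, and Matn1 and Hapln1 were at the floor in adult testis. Matn3 was above the floor only in adult testis, where it was not called against neonatal testis or adult ovary. Apart from Col9a1, the other collagens of cartilage were not higher there. Col11a1, a chain of cartilage fibrils that other tissues also make, was at 339, 191 and 307 in the ovaries and at 373, 166 and 75.6 in the testes, and Col11a2 and Col10a1 were at the floor on all arrays.

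Fewer collagen genes were called between neonatal and adult ovary. None of the 42 collagen genes was called higher in adult than in neonatal ovary and 6 (14.3%) were called lower, against 1.48% and 1.89% of all genes. These were 3 fibrillar genes (Col1a1, Col5a1 and Col5a3) and 3 others (Col14a1, Col23a1 and Col8a2), and no basement membrane gene. These counts rest on the probe set used. Second probe sets of Col4a6 (log2 ratio -2.13) and Col5a2 (-3.15) were past the limit for lower. A second of Col4a4 (at least 2.05) was past it for higher. Medians of the log2 ratio were -0.91 for fibrillar, -0.41 for basement membrane and -1.12 for other collagens, and 29 of 35 genes above the floor were lower in adult ovary. The robust SD between probe sets was 0.32.

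Col14a1, a fibril-associated collagen that regulates fibril growth, changed most. It was at 1901, 2847 and 118 in fetal, neonatal and adult ovary and at 1903, 799 and 237 in fetal, neonatal and adult testis. The adult ovary was the lowest of all arrays, 24.1-fold below neonatal ovary. A second probe set went from 1020 in neonatal ovary to the floor. Col1a1 fell 7.33-fold, Col5a3 6.81-fold and Col5a1 5.24-fold in the same comparison, and Col23a1 and Col8a2 were at least 5.67-fold and 4.42-fold lower. Other probe sets of Col23a1, also at the floor in adult ovary, changed by -2.21 and -0.81 on the log2 scale.

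The chains of type I collagen separated here. On the brightest probe sets Col1a1 fell by 2.87 on the log2 scale, while Col1a2 changed by -0.84 and Col3a1 by -0.91. A second probe set of Col1a1 changed by -2.03, a second of Col1a2 by -1.54 and a second of Col3a1 by -2.55. By these others Col3a1 was past the limit and the type I chains lay closer together. As deposited, the brightest probe sets of Col1a2 and Col3a1 lay between 50.6% and 79.4% of the highest signal of any probe set on the 5 arrays other than adult testis. The part of signal saturation in the smaller changes was not tested.

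Col14a1, Col1a1, Col5a3 and Col23a1 were called lower in adult ovary under all 5 scalings. With scaling to the hybridization controls 11 collagen genes (26.2%) were called lower, against 2.36% of all genes. Stromal markers summed to 23049 in neonatal and 10257 in adult ovary, with all 8 above the floor, and granulosa cell markers to 5829 and 25135. Duct and mesonephros epithelium markers summed to 15527 in neonatal ovary, the highest of all arrays, and to 2715 in adult ovary. The part of these cells in the collagen signals was not tested.

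**Figure D4:**
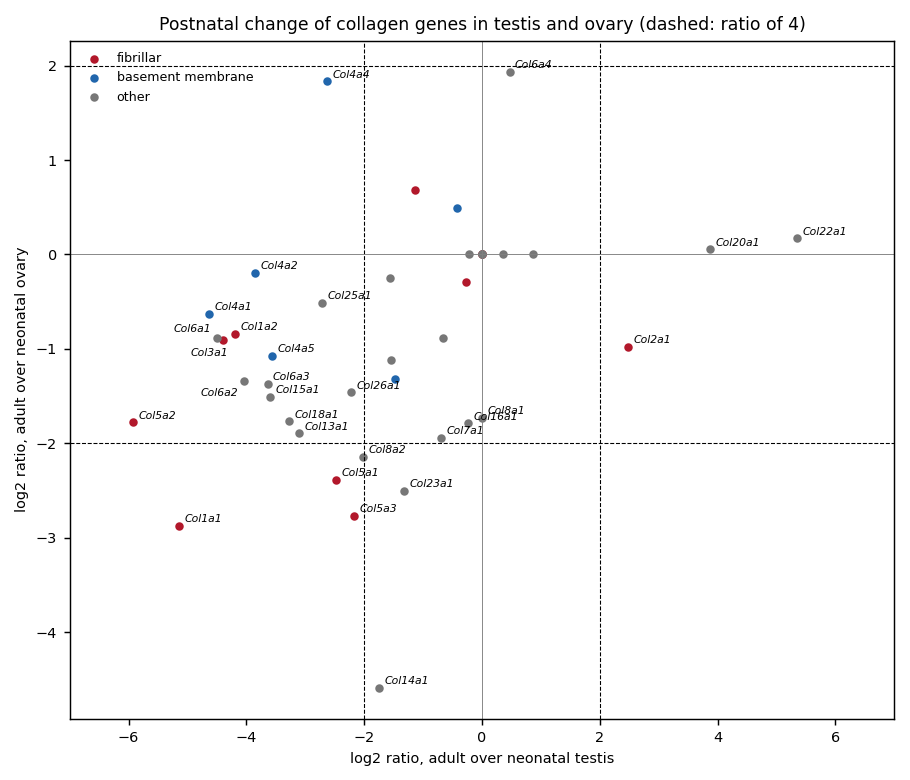
Log2 change from neonatal to adult life of each collagen gene in testis (horizontal axis) and ovary (vertical axis), coloured by class, with dashed lines at the limits of -2 and 2 and 1 array per group. Many genes lie below 0 on both axes, Col14a1 is lowest in ovary at -4.59, and Col22a1, Col20a1 and Col2a1 lie beyond 2 in testis.

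Adult ovary and adult testis differed in 16 collagen genes. Of the 42 genes 13 (31.0%) were called higher in ovary and 3 (7.14%) lower, against 11.9% and 10.9% of all genes. The higher genes were 5 fibrillar, 3 basement membrane and 5 others, and the median log2 ratio was 1.11 for fibrillar, 1.96 for basement membrane and 0.00 for other collagens. Col5a2 was at least 24.3-fold higher in ovary, and Col6a1, Col4a1, Col3a1, Col1a2 and Col4a5 were higher by 13.7, 13.5, 12.1, 11.3 and 10.8-fold. Col6a3, Col4a2, Col6a2, Col1a1, Col15a1, Col18a1 and Col11a1 followed, between 7.86-fold and 4.06-fold higher. Second probe sets of Col4a5 and Col11a1 were 3.39-fold and 3.47-fold higher, under the limit.

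Genes lower in ovary were Col22a1 at 36.2-fold, Col20a1 at 11.2-fold and Col2a1 at least 6.83-fold. This comparison shares the adult testis array with the comparison of adult and neonatal testis, so the calls of the 2 are not separate evidence. With scaling to the hybridization controls 6 collagen genes were higher and 6 lower (14.3% each), and the fibrillar median was 0.00. Of all genes, 4.14% were then called higher and 19.1% lower in ovary. Col1a2, Col3a1, Col4a1, Col4a5, Col5a2 and Col6a1 were called higher, and the 3 genes lower, under all 5 scalings.

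Several collagens above the floor were never called. Col16a1, a fibril-associated collagen, was at 2481, 2725 and 789 in the ovaries and at 2387, 1387 and 1172 in the testes. Col27a1, a fibrillar collagen of cartilage and growing tissue, was at 1126, 903 and 736 in the ovaries and at 1117, 676 and 558 in the testes. Neither was called in any comparison, and both were above the floor on all 6 arrays. Col7a1, the anchoring fibril collagen of skin, ranged from 132 in adult ovary to 688 in fetal ovary, and Col12a1, a fibril-associated collagen of tendon, was at 602, 499 and 230 in the ovaries and at 646 and 220 in fetal and neonatal testis, reaching the floor in adult testis without a call.

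Many genes that modify, secrete and cross-link collagen chains were low on the same array. Of 31 listed processing genes 27 were measured, and 15 of them were called lower and none higher in adult than in neonatal testis, with a median log2 ratio of -2.05, against 10.3% of all genes lower and 10.7% higher. Serpinh1, the collagen chaperone HSP47, was at 5649, 4639 and 4102 in fetal, neonatal and adult ovary and at 5526, 4716 and 100 in fetal, neonatal and adult testis, a 47.1-fold fall after birth. Pxdn, the peroxidase that cross-links type IV collagen, fell 29.0-fold, from 3197 to 110. Lox, the lysyl oxidase that cross-links fibrils, fell from 1706 to the floor, at least 22.7-fold. Scaling to the hybridization controls left 5 of the 27 called lower, with a median of -0.58, against 2.22% of all genes.

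In adult against neonatal ovary 2 of the 27 processing genes were called higher and 1 lower, against 1.48% and 1.89% of all genes. Plod2, a lysyl hydroxylase, was at 735, 340 and 3267 in fetal, neonatal and adult ovary and was 9.61-fold higher in adult than in neonatal ovary. Colgalt2, a collagen galactosyltransferase, was at the floor in neonatal and at 363 in adult ovary, at least 4.82-fold higher. Loxl1, a lysyl oxidase relative, went from 4768 to 722, a 6.61-fold fall. The median over the list was -0.17. In adult ovary against adult testis 16 of 27 were higher and none lower, with a median of 2.27, against 11.9% and 10.9% of all genes. None was called between the organs before adulthood, when few of all genes were. Of all genes 0.192% were higher and 0.44% lower in fetal ovary, and 1.4% and 0.962% in neonatal ovary. The adult count was 8 of 27, with a median of 1.16, after scaling to the hybridization controls, against 4.14% of all genes.

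Genes of proteins that bind fibrils were low in adult testis too. Of 10 genes 9 were called lower in adult than in neonatal testis, with a median log2 ratio of -3.31 and against 10.3% of all genes, and Dpt and Bgn, which bind and space fibrils, fell 36.7-fold and 30.4-fold. Scaling to the hybridization controls left 5 of the 10 lower, with a median of -2.06, against 2.22% of all genes. In adult against neonatal ovary Fmod, Dpt, Tnxb and Thbs2 were lower and none higher, with a median of -1.29, against 1.89% and 1.48% of all genes. Dpt also rose before, from 1230 in fetal to 7560 in neonatal ovary, and Tnxb, a tenascin that binds fibrils, rose from 306 to 1645. Dpt is also 1 of the 8 stromal markers.

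Of the 14 basement membrane partners 9 were called lower in adult than in neonatal testis, with a median of -2.29 and against 10.3% of all genes, and Lamb1, a laminin chain, fell 21.5-fold. Nid2 and Agrn were lower in adult than in neonatal ovary, against 1.89% of all genes. Of 9 collagen receptors 5 were lower in adult than in neonatal testis, among them Itgb1, the common beta chain of collagen-binding integrins, which fell 9.75-fold. Itga1, its partner for type IV collagen, was higher by 5.62-fold, from 97.4 to 547. Of 10 collagen-degrading enzymes and inhibitors 4 were lower there, Mmp2, Mmp14, Timp1 and Timp3. After scaling to the hybridization controls 3 of the 14 partners, none of the 9 receptors and 1 of the 10 enzymes and inhibitors were lower in adult than in neonatal testis, against 2.22% of all genes. In adult against neonatal ovary Timp1, an inhibitor of these enzymes, was 5.45-fold higher.

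Probe sets of a gene did not always give the same change. Among 134 pairs of gene and comparison with at least 2 probe sets above the floor, 12 had log2 ratios that differed by over 2, and in 19 the call depended on the probe set. In adult against neonatal testis these were Col1a2 (-5.24 to -1.70), Col4a4 (-2.63 to -0.60), Col12a1 (-1.55 to 0.54), Col22a1 (0.00 to 5.35), Col23a1 (-3.39 to -1.33) and Col25a1 (-2.72 to 0.13). In adult ovary against adult testis they were Col1a2 (0.70 to 3.83), Col5a2 (2.41 to 4.60), Col12a1 (-0.58 to 1.61) and Col22a1 (-5.18 to 0.00). Col4a4 was the gene in the other 2, neonatal ovary against neonatal testis (-3.64 to -0.60) and neonatal against fetal testis (0.60 to 2.84). For Col1a2 and Col5a2 all probe sets had the same sign in both adult comparisons, whereas Col12a1 had both signs.

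**Figure D5:**
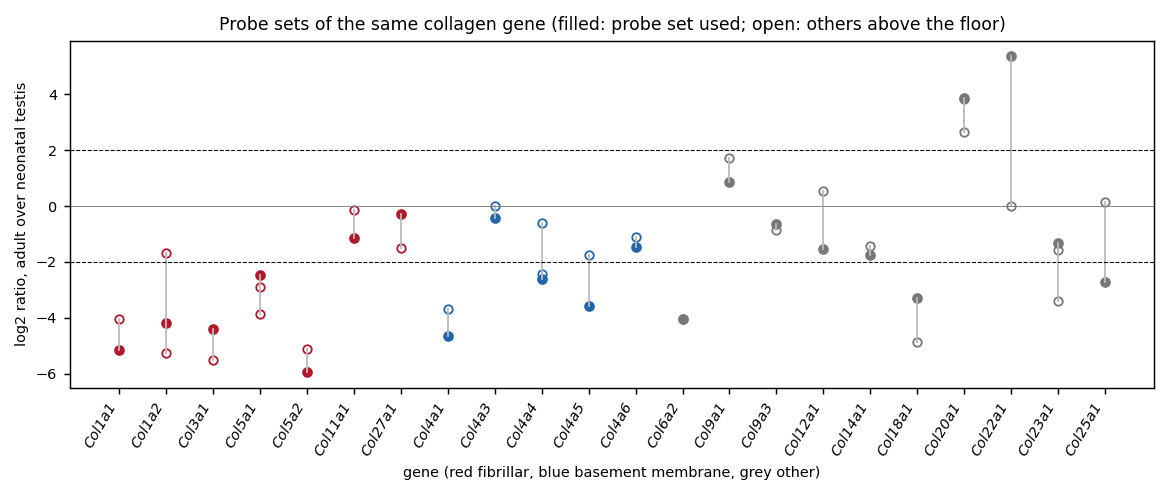
Log2 ratio of adult against neonatal testis for each probe set (point) of the collagen genes with at least 2 probe sets above the floor, with the probe set used for the gene filled, the others open, and dashed lines at the limits of -2 and 2. Col1a2 and Col22a1 have the widest spread, from -5.24 to -1.70 and from 0.00 to 5.35.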

How the data were processed

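The deposited table holds 1 intensity for each of 45101 probe sets and 6 arrays, on a linear scale, from biotin-labelled RNA per the labels' protocols. GCOS version 1 is named per the submitters' processing notes, without its role. How the authors corrected background, summarised probes and scaled arrays, and how many animals gave each sample, is not stated in the labels or notes used here.

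Each array was scaled to the same trimmed mean (2% off each end), and signals under the median of all scaled signals were raised to that floor. Only probe sets with 1 symbol were used, the one with the highest mean signal per gene. A gene was called at a ratio of 4 or more across all 18193 genes. With 1 array per group there was no test, and precision is limited by this number of arrays. Alternatives were 4 other scalings, 3 other floors, 2 other choices of probe set and ratios of 2 and 8.

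Signals were printed for every collagen gene called at least once and for chains of the same molecule. From some of the other lists they were printed for a few genes, not all of them called, which stand as examples. The members, the 5 lists of other genes and the 8 marker lists were chosen with earlier results of these data known. Of the listed genes, Fkbp10, Adamts2, Adamts14, Loxl2, Itga11 and Pax2, among others, were not matched and are not analysed here. Promoter windows and their positions came from RefSeq (GRCm38.p6), which was also used for gene order. The steps were tested on simulated data. Python 3.11.15, pandas 2.3.3, numpy 2.4.6 and matplotlib 3.10.9 were used.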

Additional observations from a re-analysis of the deposited data

Results flagged for a closer look

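Col14a1 differed between the organs in opposite directions at 2 ages. Its log2 ratio of ovary to testis was 1.83 at birth, from signals of 2847 and 799, and -1.00 in adults, from signals of 118 and 237. A second probe set gave 1.63 at birth and -0.68 in adults, with adult ovary at the floor. The difference between the ages was not tested, because each group has 1 array. Both directions held under all 5 scalings.

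Col4a4 moved in opposite directions after birth in the organs. Its log2 ratio of adult to neonatal signal was -2.63 in testis, from 1648 to 266, and 1.83 in ovary, from 132 to 470. A second probe set gave -2.44 in testis and 2.05 in ovary. The difference between the organs was not tested. Its directions held under all 5 scalings, with -1.13 in testis after scaling to the hybridization controls.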

How the results depend on the processing

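Each result is a count of collagen genes called or the median log2 ratio of a class. Of 343 values under the 11 alternatives, 258 stayed within 1.5 times of the count or within the spread between probe sets for a median, 85 moved, and no median beyond a ratio of 4 changed sign. In 4 values a smaller median changed sign: to 0.04 for fibrillar collagens in fetal ovary against fetal testis, and to -0.03 and -0.05 for fibrillar and basement membrane collagens in neonatal against fetal ovary, on signals as deposited, and to 0.13 for basement membrane collagens in neonatal ovary against neonatal testis on the hybridization controls. Omitting probe sets that can cross-hybridize moved none. The cause of the moves was not tested, beyond what the alternatives themselves change. No replicate could be left out, since each group has 1 array, and small counts (0 to 2) move with a single gene near the limit. No paired analysis was possible because the groups share fewer than 2 replicate numbers. Without replicates, depth is the signal over background: 4 genes were at the floor everywhere and cannot be followed, and background correction of the deposited signals is unknown, so ratios of dim genes are uncertain.

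Among scalings, quantile normalization called 0 genes lower in neonatal than in fetal testis. Signals as deposited called 2 genes lower in fetal ovary than in fetal testis, 0 higher in neonatal than in fetal ovary and 2 higher in adult than in neonatal ovary. They gave medians of -0.05 for basement membrane collagens in neonatal against fetal ovary, and of -0.49, 0.00 and -0.70 for fibrillar, basement membrane and other collagens in adult against neonatal ovary. The same median called 0 lower in neonatal than in fetal testis, 0 higher in neonatal than in fetal ovary and 1 higher in adult than in neonatal ovary. Shares of all genes, in the same order, were 0.385% after quantile normalization and 0.429%, 0.418% and 2.21% as deposited. With the same median they were 0.352%, 0.638% and 1.70%.

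Scaling to the hybridization controls called 2 higher and 1 lower in neonatal ovary against neonatal testis, with medians of 0.92, 0.13 and 0.71 for fibrillar, basement membrane and other collagens. It called 6 higher and 6 lower in adult ovary against adult testis, with medians of 0.00 for fibrillar and 0.84 for basement membrane collagens. It called 12 lower in adult than in neonatal testis, with medians of -0.68, -1.61 and 0.00, and 11 lower in adult than in neonatal ovary. In neonatal against fetal ovary it called 3 higher, with medians of 0.73 for fibrillar and 0.77 for basement membrane collagens. Of all genes it called 2.6% higher and 0.456% lower in neonatal ovary against neonatal testis and 1.3% higher in neonatal than in fetal ovary. In adult ovary against adult testis the shares were 4.14% and 19.1%. In adult testis and adult ovary 2.22% and 2.36% of all genes were lower than at birth.

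A floor at the 25th percentile called 2 lower and gave a basement membrane median of -0.61 in fetal ovary against fetal testis. It called 2 higher in neonatal ovary against neonatal testis, 6 lower in adult ovary than in adult testis, 2 higher in neonatal than in fetal testis (fibrillar median -0.31) and 3 higher in neonatal than in fetal ovary (basement membrane median 0.59). A floor at the 75th percentile called 0 lower in fetal ovary than in fetal testis (basement membrane median 0.00) and 1 lower in neonatal ovary than in neonatal testis (basement membrane median -0.13). In adult ovary against adult testis it called 1 lower, with medians of 0.40 for fibrillar and 0.86 for basement membrane collagens. In neonatal against fetal testis it called 0 lower, with a basement membrane median of 0.21. In adult against neonatal testis it called 1 higher and 12 lower, with medians of -0.28, -1.83 and 0.00. It called 0 higher in neonatal than in fetal ovary and 3 lower in adult than in neonatal ovary (median of other collagens 0.00). With no floor and 16 added, 2 were lower in fetal ovary than in fetal testis (basement membrane median -0.60), 6 lower in adult ovary than in adult testis, 0 lower in neonatal than in fetal testis (fibrillar median -0.31) and 0 higher in neonatal than in fetal ovary (basement membrane median 0.59).

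The mean of all probe sets called 0 lower in fetal ovary than in fetal testis, 1 lower in neonatal ovary than in neonatal testis, 0 higher and 0 lower in neonatal against fetal testis, and 0 higher in neonatal than in fetal ovary. It gave medians of -1.09, -2.28 and -0.69 in adult against neonatal testis, and of -0.68 for other collagens in adult against neonatal ovary. Beside its counts, in the same order, stand 0.341%, 0.715%, 0.236% and 0.280%, and 0.566% of all genes.

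At a ratio of 2, counts were 2 lower in fetal ovary than in fetal testis, 6 higher in neonatal ovary against neonatal testis, 6 lower in adult ovary than in adult testis, 3 higher and 6 lower in neonatal against fetal testis, 4 higher and 3 lower in neonatal against fetal ovary, and 2 higher and 19 lower in adult against neonatal ovary. At a ratio of 8, counts were 0 lower in fetal ovary, 1 lower in neonatal ovary and 6 higher in adult ovary against testis of the same age, 0 in either direction in neonatal against fetal testis, 0 higher in neonatal than in fetal ovary and 1 lower in adult than in neonatal ovary. In the same order, the shares of all genes at a ratio of 2 were 1.8%, 5.8%, 17.7%, 2.3% and 3.4%, 3.6% and 2.5%, and 5.9% and 6.9%. At a ratio of 8 they were 0.143%, 0.308%, 3.70%, 0.055% higher and 0.0495% lower, 0.198% and 0.489%.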
